A study of Mus musculus with 6 samples.

Results

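The cytosolic ribosomal protein genes are the genes for the proteins of the large (*Rpl*) and small (*Rps*) subunit of the ribosome. They were taken by symbol from the table of expression values, as names made of Rpl or Rps, an optional p and a number, with the pseudogenes marked -ps and the *Rps6k* kinases left out. This gave 86 members among 20856 genes with values, of which 50 were *Rpl* and 36 *Rps* genes, and 82 of them (49 *Rpl* and 33 *Rps*) reached at least 1 RPKM (reads scaled by transcript length and by all reads counted on genes) in at least 3 of the 6 libraries and could be tested. The same filter left 11617 genes in all.

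RNA-seq was run on 6 cell lines grown out of liver tumors of adult female C57BL/6 mice. The tumors were raised by hydrodynamic tail vein injection, which forces plasmid DNA into hepatocytes, of a *Myc* transposon together with a pX330 plasmid for transient expression of Cas9 and a guide RNA. In 3 lines the guide was directed against *Trp53* (sg*Trp53*, spelled sgp53 in the labels), the p53 tumor suppressor, and in 3 lines against *Kmt2c* (sg*Kmt2c*, spelled sgMll3), which encodes the histone methyltransferase MLL3. All lines therefore carry the *Myc* transposon and were edited at either *Trp53* or *Kmt2c*, and no line with both genes unedited was compared. The lines came from different mice and were untreated, and each was passaged on collagen until no fibroblasts were visible. The sg*Kmt2c* lines 2 and 3 carry the related names 2A and 2T1 in the labels. Each genotype is thus represented by 3 independently derived lines, and a difference between genotypes is read against the spread between them. Values in groups of 3 are given for lines 1, 2 and 3 in that order, first sg*Trp53* and then sg*Kmt2c*.

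A ribosome holds close to equal numbers of nearly every ribosomal protein, and the genes are accordingly among the most highly transcribed in dividing cells. Most of their mRNAs begin with a run of pyrimidines, the 5′ terminal oligopyrimidine (TOP) motif, through which their translation follows mTOR signaling. The family is a classical target of Myc, and several free ribosomal proteins, RPL5 and RPL11 first among them, bind MDM2 and so relieve p53 of degradation when ribosome assembly is disturbed.

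The start of a ribosomal protein gene is where the TOP motif is found, and 61 members had an entry in the RefSeq promoter set of GRCm38.p6. The following sequences run from 30 bases before to 20 bases after the annotated start, 5′ to 3′ on the gene's strand. They are shown for the paralog pairs whose ratio differed most between the genotypes, as described further on, and for *Rps6* and *Rplp2* as starts with a TOP motif. Capitals mark the motifs named after the sequences.
Rpl22l1 (chr3:28805478-28805527, plus strand): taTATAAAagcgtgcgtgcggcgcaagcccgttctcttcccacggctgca
Rpl22 (chr4:152325696-152325745, plus strand): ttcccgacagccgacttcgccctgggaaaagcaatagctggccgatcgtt
Rps27l (chr9:66946056-66946105, plus strand): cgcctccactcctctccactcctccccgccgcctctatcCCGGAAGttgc
Rps27 (chr3:90213629-90213678, minus strand): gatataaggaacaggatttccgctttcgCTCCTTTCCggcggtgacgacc
Rps6 (chr4:86857348-86857397, minus strand): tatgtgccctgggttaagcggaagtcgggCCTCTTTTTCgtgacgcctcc
Rplp2 (chr7:141447621-141447670, plus strand): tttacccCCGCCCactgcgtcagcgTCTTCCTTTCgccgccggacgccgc

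The *Rps27*, *Rps6* and *Rplp2* windows have a TOP run at the annotated start. That of *Rpl22l1* has a TATAAA box, that of *Rps27l* an ETS motif (CCGGAAG), and that of *Rplp2* also an Sp1 motif on the other strand (GGGCGG, printed as CCGCCC). The *Rpl22* window shown holds none of the motifs searched. *Rpl22* and *Rps27l* each have another annotated start, not shown. That of *Rpl22* has AAGATGGC (YY1) and TATAAA in its wider window of 300 bases. In the counts below a motif at any entry of a gene counts for that gene. A TOP run was scored as a C at the annotated start inside at least 5 pyrimidines in a row, so a start annotated a few bases away from the true one is missed. It was found in 14 of the 61 members (23.0%), in 6.34% of the 8468 other tested genes with an entry and in 6.59% of all 27025 genes with an entry. In windows of 300 bases (250 before and 50 from the start, either strand), the ETS motif was held by 24 members (39.3%, against 21.5% of other tested genes and 9.93% of all genes) and the YY1 motif AAGATGGC by 6 (9.84%, against 5.73% and 3.19%). The Sp1 motif was held by 38 members (62.3%, against 71.8% and 38.2%), the Myc E-box CACGTG by 6 (9.84%, against 12.3% and 8.09%) and TATAAA by 7 (11.5%, against 8.20% and 15.7%). None of these letter strings contains another. The 67 mitochondrial ribosomal protein genes with an entry held the ETS motif in 24 cases (35.8%) and a TOP run in 2 (2.99%). These are matches of letters and not binding sites.

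The libraries held 5312182 to 6878625 reads on genes for sg*Trp53* and 3680068 to 4704539 for sg*Kmt2c*, and were run together in 2 lanes of 1 flow cell. *Trp53* stood at 17.2, 17.6 and 19.4 RPKM with sg*Trp53* and at 92.2, 124 and 121 RPKM with sg*Kmt2c*. *Kmt2c* overlapped between the genotypes (18.4 to 24.2 RPKM with sg*Trp53* and 9.51 to 24.97 RPKM with sg*Kmt2c*) and was lowest in sg*Kmt2c* line 3. The part of the Cas9 edits in the levels of either gene was not tested. *Myc* overlapped too, at 47.1 to 98.1 RPKM with sg*Trp53* and 57.0 to 90.9 RPKM with sg*Kmt2c*. The 8 hepatocyte markers with values summed to 11.9 to 37.9 RPKM with sg*Trp53* and 4.21 to 1250 RPKM with sg*Kmt2c*. Of these, *Hnf4a* ranged from 0.629 RPKM in sg*Kmt2c* line 2 to 1186 RPKM in sg*Kmt2c* line 1. *Alb* (albumin) reached at most 4.36 RPKM in any line, and *Apoa1*, *Apoa2* and *Serpina1a* at most 2.95 RPKM. *Afp* and *Ttr* reached 19.3 and 14.1 RPKM in sg*Kmt2c* line 1, and *Fgb* 32.5 RPKM in sg*Kmt2c* line 3. The 5 epithelial markers summed to 62.6 to 990 RPKM with sg*Trp53* and 237 to 5811 RPKM with sg*Kmt2c*, and the 6 fibroblast markers to 14.04 to 953 and 0.282 to 126 RPKM. The 6 immune markers summed to 21.7 to 58.2 and 5.51 to 15.2 RPKM with *Cd3e* at 0 throughout, and the 4 endothelial markers to at most 0.284 RPKM. In bulk RNA, fewer cells of a type and less RNA per cell cannot be told apart.

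Ribosomal protein transcripts were abundant in all lines. The mean over the 6 lines had a median of 690 RPKM over the 82 tested members (quartiles 467 and 973), against 14.7 RPKM over all genes tested, and 36 of the 100 genes with the highest mean RPKM were members, as were 3 of the top 20. In 80 of the 82 every library held at least 250 reads, and the lowest count behind any tested value was 21 reads.

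The members took 4.79, 5.05 and 4.02% of the reads on genes with sg*Trp53* (lines 1, 2 and 3) and 4.36, 6.20 and 4.59% with sg*Kmt2c*. The genotypes overlapped, with means of 4.62% ± 0.535 and 5.05% ± 1.01 (SD, n = 3 lines each), and the line with the highest share was sg*Kmt2c* line 2 while sg*Trp53* line 3 had the lowest. Without sg*Kmt2c* line 2 the difference of the means turned from 0.430 to -0.147 percentage points. As a part of the summed RPKM, which weighs short transcripts more, the shares were 11.2, 12.1 and 9.77% against 10.2, 14.6 and 11.0%. The 139 rows of -ps pseudogenes, which could draw reads from the members, held 1.46 to 1.79% as many reads as the members in each line. Reads on large subunit genes outnumbered those on small subunit genes by 1.625, 1.740 and 1.703 times with sg*Trp53* and by 1.616, 1.590 and 1.561 times in the sg*Kmt2c* lines. Each sg*Kmt2c* line thus lay below each sg*Trp53* line, narrowly so between line 1 of either genotype, and this ratio was not tested.

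Most of the family varied together from line to line. Relative to each gene's mean over the 6 lines on the log2(RPKM + 1) scale, the median of the tested members lay at -0.00, 0.10 and -0.27 in the sg*Trp53* lines 1 to 3 and at -0.11, 0.38 and -0.06 in the sg*Kmt2c* lines. Of the 82 tested members, 58 had their highest value in sg*Kmt2c* line 2, and 46 had their lowest in sg*Trp53* line 3. The large and small subunits were alike in the highest and lowest lines, with 0.37 and 0.38 in sg*Kmt2c* line 2 and -0.26 and -0.30 in sg*Trp53* line 3. They were farther apart in sg*Trp53* line 2 (0.13 and 0.01) and sg*Kmt2c* line 3 (-0.08 and 0.00). The lines that were highest and lowest were also those with the fewest (3680068) and the most reads (6878625), and the part of depth was not tested. This step within each genotype was wider than the median log2 difference of 0.13 between the genotypes.

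**Figure D1:**
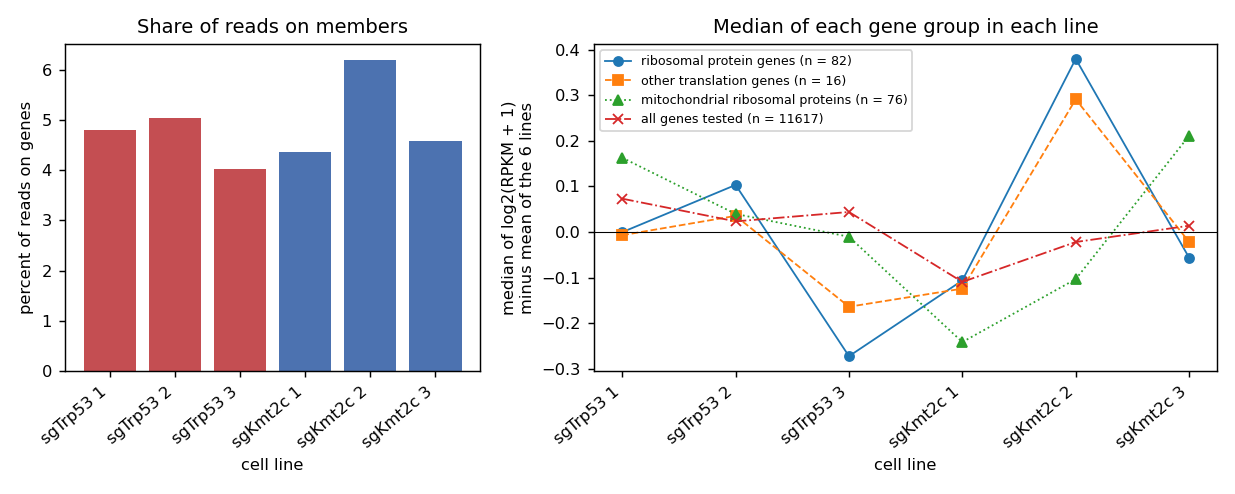
Left, the percent of the reads on genes that fell on the 86 ribosomal protein genes in each line (bars from 0, sg*Trp53* red and sg*Kmt2c* blue). Right, for each line, the median over a gene group of log2(RPKM + 1) minus the gene's mean over the 6 lines. The ribosomal protein genes and 16 other translation genes are both highest in sg*Kmt2c* line 2 (0.38 and 0.29) and lowest in sg*Trp53* line 3 (-0.27 and -0.16), while the 76 mitochondrial ribosomal proteins are highest in sg*Kmt2c* line 3 (0.21).

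Of the genes outside the family, those for translation factors and other proteins whose mRNAs are known to carry TOP motifs (elongation factors such as *Eef1a1*, *Eef2*, and *Pabpc1*, *Npm1* and *Tpt1*, 16 genes) had a similar profile. Their medians were -0.01, 0.04 and -0.16 with sg*Trp53* and -0.12, 0.29 and -0.02 in the sg*Kmt2c* lines. The 76 mitochondrial ribosomal proteins, which build the separate ribosome of that organelle, lay at 0.16, 0.04 and -0.01 and at -0.24, -0.10 and 0.21, so that the line highest for the cytosolic family was not highest for them. The 8 tested of 9 dedicated chaperones and assembly factors of ribosomal proteins, such as *Grwd1* and *Rrs1*, lay at 0.10, -0.11 and 0.10 and at -0.27, 0.00 and 0.28. Short genes and highly expressed genes, each taken at large, did not have this profile. The 1975 other genes with transcripts under 1000 bases stood at -0.01 in sg*Kmt2c* line 2 and 0.03 in sg*Trp53* line 3, and the 880 other genes with a mean of at least 100 RPKM at -0.01 and 0.07. The members are both short (median 755.5 bases) and far more abundant (median 690 RPKM). Genes like them in both traits were not compared, and the part of length and level was not tested.

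Across the 6 libraries, the correlation of a member with the mean of the other members had a median of r = 0.80, and 41 members (50%) were above 0.8, against 2.72% of the other tested genes. With the 2 libraries farthest from the median left out (sg*Kmt2c* line 2 and sg*Trp53* line 3), the median over the remaining 4 was 0.73 and 34 members were above 0.8. The share of other tested genes above 0.8 was not taken over these 4. High correlations arise more easily with fewer points, so the 34 cannot be set against the 2.72%. All these correlations share their libraries and their scaling, and so are a description only. *Rpl36* (r = 0.999), *Rpl41* (0.989) and *Rpl10a* (0.985), all structural proteins of the large subunit, followed the family most closely. The members that followed it least were *Rps3a2* (-0.185), *Rps3a3* (0.0443), *Rpl7l1* (0.0609), *Rps3a1* (0.154), *Rpl36al* (0.182), *Rpl22l1* (0.247) and *Rps27l* (0.336), among which are all 4 tested paralogs.

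Among genes outside the family, *Pink1*, the kinase that marks damaged mitochondria, had the profile most like the mean of the members (r = 0.993 over the 6 libraries, 0.989 over the 4). It stood at 18.0, 20.1 and 14.2 RPKM with sg*Trp53* and at 15.6, 24.8 and 17.1 RPKM with sg*Kmt2c*. *Tmem184b* (r = 0.989), *Gm12254* (0.988), *Iffo1* (0.988) and *C230035I16Rik* (0.984) came next. Each of these 5 was highest in sg*Kmt2c* line 2 and lowest in sg*Trp53* line 3. They were picked as the highest correlations among all other tested genes, so this shared order follows from the choice.

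**Figure D2:**
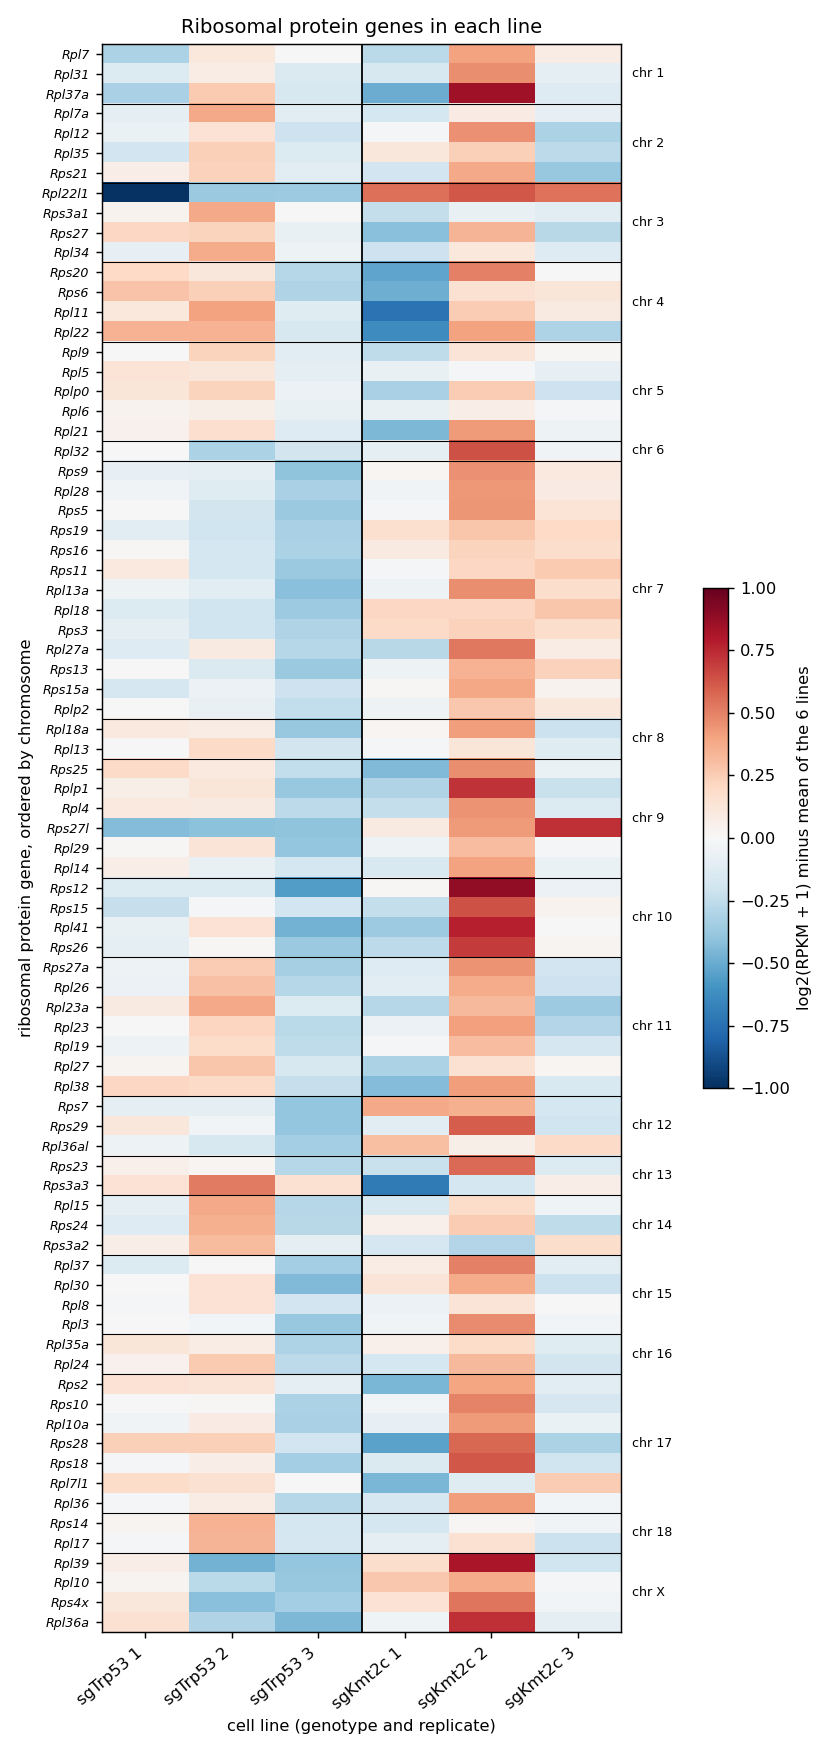
Each row is 1 of 80 of the 82 tested members, ordered by chromosome, and each column a line; color gives log2(RPKM + 1) minus the gene's mean over the 6 lines (red higher, blue lower). Most rows are red in sg*Kmt2c* line 2 and blue in sg*Trp53* line 3, the chromosome 4 rows are blue in sg*Kmt2c* line 1, and *Rpl22l1* and *Rps27l* are blue in all sg*Trp53* and red in all sg*Kmt2c* lines.

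The comparison of the genotypes asked which genes differ between tumor cells edited at *Kmt2c* and at *Trp53*. No ribosomal protein gene passed an adjusted p-value of 0.05 (limma on log2(RPKM + 1), Benjamini-Hochberg over all genes tested), the lowest being 0.236, where 0.129% of all genes tested (15 genes) did. An unadjusted limma p-value under 0.05 was reached by 4 members (4.88%), all higher with sg*Kmt2c*, against 8.58% of all genes tested (3.25% higher and 5.34% lower), and by 5 with limma voom on recovered reads, which called none after adjustment. The 3 lines of a genotype lay entirely on one side of the other 3 for 15 members (18.3%), against 16.2% of all genes tested, 13 of them on the higher side for sg*Kmt2c* and 2 on the lower, where all genes gave 5.72% higher and 10.4% lower. The log2 fold change (sg*Kmt2c* minus sg*Trp53*) was above 0 in 53 members and below 0 in 29, while 42% of all genes tested were above 0. Its median was 0.13 over the members and -0.09 over all genes. Without sg*Kmt2c* line 2 the median of the members was -0.05 with 33 above 0, and without sg*Trp53* line 3 it was 0.01. Quantile scaling left a median of 0.03 with 47 above 0. Median-of-ratios scaling gave 0.22 with 61 above 0 and 20 members on the higher side without overlap. The median of all genes tested was -0.01 under either scaling. Under median-of-ratios scaling 7.79% of all genes tested were without overlap on the higher side and 7.99% on the lower.

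The differences were small for most of the family. Their SD over the members was 0.27 on the log2 scale against 0.63 over all genes tested, and only *Rpl22l1* and *Rps27l* exceeded 1.5-fold on that scale, whereas 22.2% of all genes did. The members also varied less within a genotype than all genes tested, with a median SD of 0.259 against 0.368 on that scale. They are far more abundant (medians of 690 and 14.7 RPKM), and these spreads were not compared with those of genes of like level. For 70 of the 82 the 95% interval of the difference lay within 2-fold in either direction. For the other 12, *Rpl22l1*, *Rps27l*, *Rps12*, *Rps26*, *Rps4x*, *Rps3a3*, *Rpl11*, *Rpl22*, *Rpl36a*, *Rpl37a*, *Rpl39* and *Rpl41*, the interval reached past it, so the data do not bound their change so closely.

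**Figure D3:**
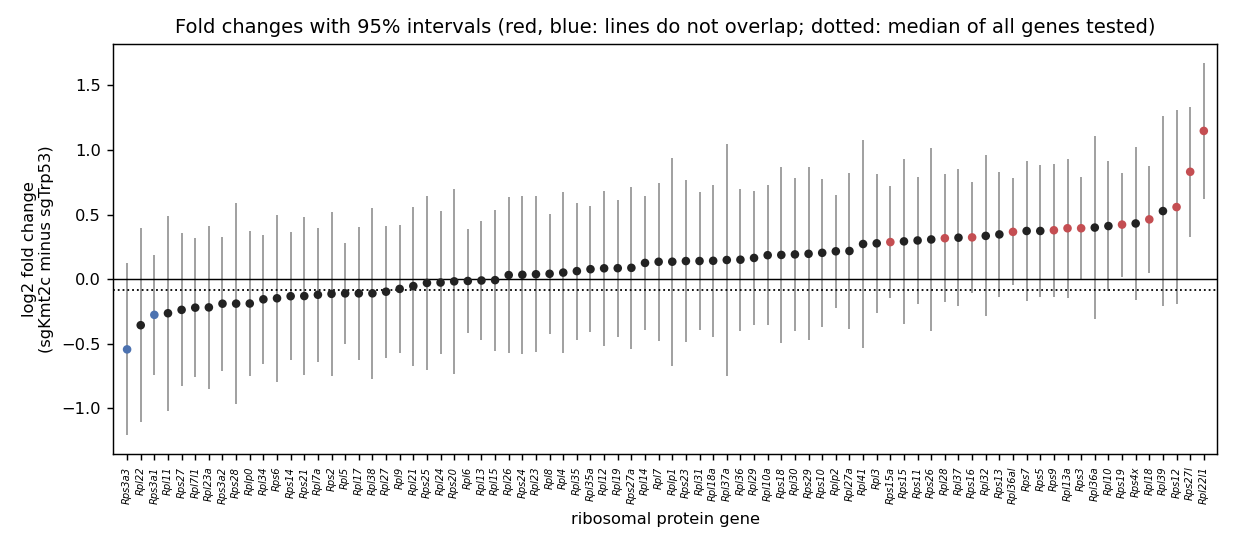
Log2 fold change (sg*Kmt2c* minus sg*Trp53*, on the log2(RPKM + 1) scale) of 80 of the 82 tested members in rank order, with 95% intervals from limma; red and blue points are members whose lines do not overlap (higher and lower), and the dotted line is the median of all genes tested (-0.09). All points but *Rpl22l1* and *Rps27l* lie within 0.56 of 0, and the intervals of 4 members exclude 0.

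The paralogs of ribosomal proteins are second copies of a ribosomal protein gene that encode a closely related protein, in several cases one that can take its place in the ribosome. Of 9 such genes listed, 6 are members, and 4 could be tested. *Rpl22l1*, the paralog of *Rpl22* (chr3:28805436-28807424), stood at 82.6, 127 and 128 RPKM with sg*Trp53* and at 242, 254 and 241 RPKM with sg*Kmt2c*. Each sg*Kmt2c* line was above each sg*Trp53* line, and the sg*Kmt2c* lines lay close together (113 ± 26.1 against 246 ± 7.17 RPKM, SD, n = 3 each). Its log2 fold change of 1.15 (95% interval 0.62 to 1.67) was the largest among the 82 tested members, and the means differed 2.18-fold. It missed the threshold after adjustment (limma, unadjusted p = 0.00149, adjusted p = 0.236).

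*Rpl22* itself (chr4:152325742-152334071), whose protein sits on the outer face of the large subunit and binds RNA, stood at 729, 727 and 510 RPKM against 370, 756 and 461 RPKM. The genotypes overlapped, and sg*Kmt2c* lines 1 and 3 lay below all sg*Trp53* lines while sg*Kmt2c* line 2 lay above them (log2 fold change -0.36, adjusted p = 0.747 from limma). The ratio of *Rpl22l1* to *Rpl22* was 0.113, 0.175 and 0.251 with sg*Trp53* and 0.655, 0.336 and 0.523 in the sg*Kmt2c* lines. All sg*Kmt2c* lines were higher, 2.85-fold between the means taken on the log2 scale. The exact permutation p = 0.1 is the smallest a two-sided test of 3 lines against 3 can give.

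*Rps27l* (chr9:66946086-66949516) is the paralog of *Rps27* in the small subunit and a known target gene of p53. It stood at 194, 197 and 198 RPKM with sg*Trp53* and at 279, 352 and 436 RPKM with sg*Kmt2c*. The sg*Trp53* lines were almost equal and all below the sg*Kmt2c* lines (196 ± 1.89 against 356 ± 79.0 RPKM, SD, n = 3 each). The log2 fold change was 0.83 (95% interval 0.33 to 1.33, limma, unadjusted p = 0.00610, adjusted p = 0.388). Its order among the sg*Kmt2c* lines (line 3 highest) differed from that of the family.

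*Rps27* (chr3:90212522-90213651), a small subunit protein with a zinc finger, stood at 187, 189 and 153 RPKM against 121, 205 and 133 RPKM, overlapping between genotypes (log2 fold change -0.24, adjusted p = 0.777 from limma). The ratio of *Rps27l* to *Rps27* was 1.04, 1.04 and 1.29 with sg*Trp53* and 2.31, 1.72 and 3.28 with sg*Kmt2c*. The genotypes did not overlap (2.10-fold between the means taken on the log2 scale, exact permutation p = 0.1, two-sided). In both pairs, then, the ordinary gene spread across the genotypes and the paralog separated them. Reads that fit both copies could be split or dropped in counting, and their part in the ratios was not tested.

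**Figure D4:**
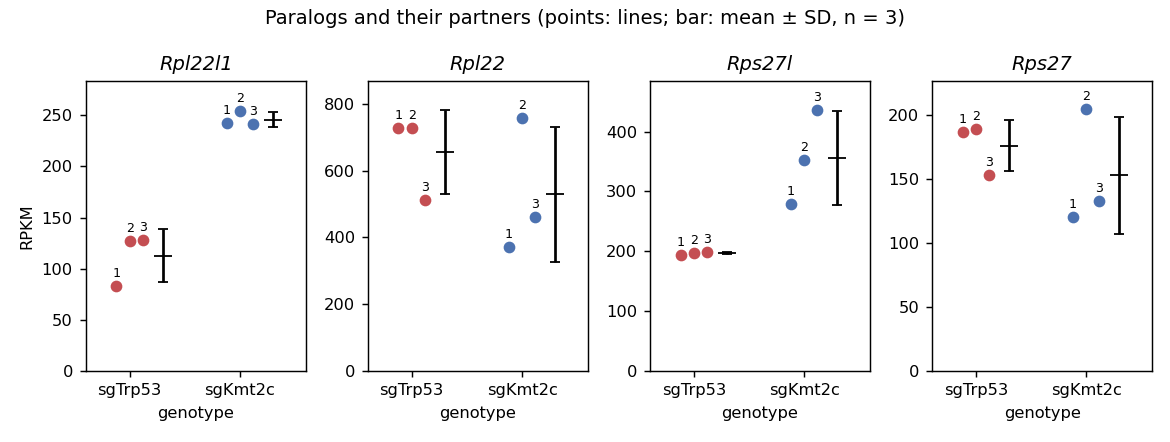
RPKM of *Rpl22l1*, *Rpl22*, *Rps27l* and *Rps27* in each line (points, numbered by line) with mean ± SD (bars, n = 3 lines) for sg*Trp53* (red) and sg*Kmt2c* (blue); each axis starts at 0. The genotypes are apart for *Rpl22l1* (82.6 to 128 against 241 to 254 RPKM) and *Rps27l* (194 to 198 against 279 to 436 RPKM) and overlap for *Rpl22* and *Rps27*.

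The other paralogs differed less. *Rpl36al*, a near copy of *Rpl36a*, stood at 98.6, 91.1 and 80.1 RPKM with sg*Trp53* and 126, 106 and 117 RPKM with sg*Kmt2c*, without overlap (log2 fold change 0.37, adjusted p = 0.608 from limma). *Rpl36a* on the X chromosome stood at 608, 444 and 402 against 531, 911 and 516 RPKM, and the ratio of the pair was 0.189 ± 0.0234 against 0.193 ± 0.0664 (SD, n = 3 lines each, exact permutation p = 1). So the pair as a whole leaned the same way and its ratio did not separate the genotypes.

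*Rpl7l1*, a relative of *Rpl7* that is known to act in assembly of the large subunit, stood at 64.1, 62.5 and 55.9 against 40.6, 51.5 and 67.1 RPKM, with the lines of the genotypes interleaved (log2 fold change -0.22, adjusted p = 0.772 from limma). *Rpl7* was far higher, at 1668, 2234 and 2083 RPKM with sg*Trp53* and 1718, 2741 and 2181 RPKM with sg*Kmt2c*, and overlapped as well. The ratio of the pair was 0.780-fold in the sg*Kmt2c* relative to the sg*Trp53* lines (means taken on the log2 scale, exact permutation p = 0.3).

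The remaining copies were close to absent or present in a single line. *Rpl3l*, which replaces *Rpl3* in muscle, was at 0.715, 0 and 0.106 RPKM with sg*Trp53* (6, 0 and 1 reads) and at 0 in all sg*Kmt2c* lines, which with 0 reads allows up to 3 reads in each. Its partner *Rpl3* stood at 531, 523 and 409 against 522, 741 and 524 RPKM. *Rps12l2* had no read in any library, and *Rps12l1* was at 0.411, 0.942 and 0.364 against 0, 0.680 and 0 RPKM, with at most 2 reads.

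*Rps4l* (chr6:148354656-148355598), a copy of *Rps4x* whose listed transcript covers its whole span, stood at 0.522, 0.199 and 3.69 RPKM with sg*Trp53* and at 0, 115 and 0.248 RPKM with sg*Kmt2c*. Sg*Kmt2c* line 2 alone carried it at a level of note, with 399 reads, while the other 5 lines had 0 to 24 reads. *Tmtc1*, the gene within whose bounds it lies (chr6:148232430-148444389), was also highest in that line at 5.86 RPKM (181 reads) and at most 0.137 RPKM in the others. The genotypes thus overlapped, with 1 of the 3 sg*Kmt2c* lines high. *Rps4x*, the X-linked gene for the standard protein, stood at 1099, 760 and 802 against 1122, 1474 and 995 RPKM and overlapped.

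*Rps3a* has near-identical copies among the members, and reads cannot be assigned to them with certainty. *Rps3a1* (chr3:86137940-86142702), a small subunit protein, stood at 868.2, 1101 and 851 RPKM with sg*Trp53* and at 719, 806 and 791 RPKM with sg*Kmt2c*. The copy *Rps3a3* stood at 10.9, 14.4 and 11.0 against 5.61, 8.53 and 10.3 RPKM. These were the only members for which all sg*Kmt2c* lines lay below all sg*Trp53* lines, with log2 fold changes of -0.28 and -0.54 (adjusted p = 0.710 and 0.632 from limma). *Rps3a2* stood at 29.2, 34.9 and 26.0 against 24.7, 22.6 and 31.6 RPKM and overlapped. Relative to *Rps3a1*, neither copy separated the genotypes (exact permutation p = 0.7 for *Rps3a2* and p = 0.3 for *Rps3a3*).

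The P stalk is the arm of the large subunit, made of *Rplp0*, *Rplp1* and *Rplp2*, that recruits elongation factors. *Rplp1* was the most abundant member, at 2388, 2492 and 1764 RPKM with sg*Trp53* and 1865, 3787 and 1969 RPKM with sg*Kmt2c*. *Rplp0* stood at 1887, 2031 and 1668 against 1388, 2073 and 1502 RPKM, and *Rplp2* at 573, 547 and 486 against 555, 693 and 622 RPKM. All 3 were highest in sg*Kmt2c* line 2 and overlapped between genotypes, with log2 fold changes of 0.14, -0.19 and 0.22 in that order.

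The large subunit as a whole had a median log2 fold change of 0.09 over 49 tested genes, with 32 above 0, 5 without overlap on the higher side and 0 on the lower, where 5.72% and 10.4% of all genes tested were without overlap. *Rpl18* (chr7:45715457-45720835), one of its structural proteins, stood at 709, 679 and 605 RPKM with sg*Trp53* and 897, 901 and 945 RPKM with sg*Kmt2c*. The genotypes did not overlap, and the difference was 1.38-fold between the means (log2 fold change 0.46, limma, unadjusted p = 0.0334, adjusted p = 0.554). *Rpl5* and *Rpl11*, which with the 5S rRNA form the particle that binds MDM2, did not separate the genotypes. *Rpl5* stood at 357, 351 and 305 against 308, 321 and 307 RPKM, and *Rpl11* at 1190, 1459 and 1017 against 660, 1315 and 1176 RPKM. Their log2 fold changes were -0.11 and -0.26, with 95% intervals of -0.50 to 0.28 and -1.02 to 0.49.

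Other abundant or widely spread genes of the large subunit overlapped between the genotypes. *Rpl4*, a core protein, stood at 1745, 1739 and 1362 against 1382, 2233 and 1489 RPKM. *Rpl37a*, whose spread within a genotype was the widest of all tested members (SD 0.536 on the log2 scale), stood at 374, 563 and 419 against 331, 843 and 429 RPKM. *Rpl41*, which encodes the smallest ribosomal protein, stood at 645, 751 and 491 against 529, 1165 and 680 RPKM. All 3 were highest in sg*Kmt2c* line 2. The remaining partners of listed paralogs overlapped between genotypes as well. *Rpl10* stood at 806, 657 and 608 against 951, 1021 and 780 RPKM. *Rpl26* stood at 737, 941 and 628 against 709, 991 and 662 RPKM, and *Rpl39* at 449.6, 310 and 328 against 484, 758 and 373 RPKM. Their paralogs *Rpl10l*, *Rpl26l1* and *Rpl39l* were not analysed here.

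The small subunit had a median log2 fold change of 0.20 over 33 tested genes, with 21 above 0, 8 without overlap on the higher side and 2 on the lower, against 5.72% and 10.4% of all genes tested. *Rps19* (chr7:24884371-24889806), needed to mature the small subunit and the gene most often mutated in Diamond-Blackfan anemia, stood at 491, 460 and 422 RPKM with sg*Trp53* and 591, 641 and 606 RPKM with sg*Kmt2c*. The genotypes did not overlap (1.34-fold, log2 fold change 0.42, limma, unadjusted p = 0.0420, adjusted p = 0.573). *Rps12*, a small protein of the subunit's head, had the third-largest log2 fold change at 0.56 and stood at 1411, 1410 and 1051 against 1564, 2868 and 1488 RPKM. It did not overlap either, but its size rested on sg*Kmt2c* line 2, the other 2 sg*Kmt2c* lines lying just above the sg*Trp53* lines (adjusted p = 0.651 from limma).

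*Rps26*, the most abundant small subunit gene with a mean of 1649 RPKM, stood at 1494, 1609 and 1236 against 1331, 2592 and 1633 RPKM and overlapped. *Rps28* stood at 511, 509 and 378 against 297, 644 and 346 RPKM, which was among the widest spreads within a genotype. *Rps15a* and *Rps20* appear low (81.5 to 123 and 116 to 238 RPKM) beside the median of 690, but the table divides their reads by transcripts of 3721 and 3706 bases where the median member has 755.5, so their levels per length are not comparable with the rest. In all 4, sg*Kmt2c* line 2 was the highest.

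Of 10 members whose proteins have been linked to MDM2, 6 were above 0 with a median log2 fold change of 0.04, 2 separated the genotypes on the higher side, and 1 (*Rps27l*) had an unadjusted p-value under 0.05. Over all genes tested, 42% were above 0, 5.72% separated the genotypes on the higher side and 3.25% had an unadjusted p-value under 0.05 there. Of 18 genes mutated in Diamond-Blackfan anemia, an inherited failure of red cell production, 12 were above 0 with a median of 0.07, 3 separated the genotypes on the higher side and 2 (*Rpl18* and *Rps19*) had an unadjusted p-value under 0.05. The ribosomal proteins that the naming rule misses, *Rpsa*, *Fau* and *Rack1* (listed as *Gnb2l1*) among them, had log2 fold changes of 0.01 to 0.12, none without overlap.

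Nor did genes of neighboring pathways pass the test. Of the 16 other TOP genes, 11 were above 0 (median 0.08), *Eef2* and *Eif3f* separated the genotypes on the higher side (5.72% of all genes tested did), and *Eif3f*, a subunit of an initiation factor, stood at 79.3, 82.2 and 67.6 against 121, 108 and 102 RPKM (log2 fold change 0.52, adjusted p = 0.497 from limma). The 8 ribosomal protein chaperones had a median of 0.07 with none below an unadjusted p of 0.05. The 76 mitochondrial ribosomal proteins had a median of -0.10, with 4 separating the genotypes on the higher and 7 on the lower side, against 5.72% and 10.4% of all genes tested, and none past the adjusted threshold. Those with an unadjusted p-value under 0.05 were *Mrps6* (log2 fold change 0.91) and *Mrpl43* (0.51) on the higher side and *Mrpl9* (-0.76), *Mrpl47* (-0.73) and *Mrpl49* (-0.68) on the lower.

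The chromosome on which a member lies went with its difference between the genotypes, and the other genes of that chromosome leaned the same way. Chromosome 7 carries 14 tested members, the most of any chromosome, and all 14 had a log2 fold change above 0 (0.22 to 0.46, median 0.34), as they did under each scaling tried and without any single line. The 807 other tested genes of chromosome 7 had a median of 0.14, and 66.3% of them were above 0. Of the 13 members that separated the genotypes on the higher side, 9 lie there, among them *Rpl13a*, *Rpl18*, *Rpl28*, *Rps3*, *Rps9* and *Rps19*. Among the other genes of the chromosome 14.1% did so. The count of 9 was 7 after quantile and 13 after median-of-ratios scaling, where 7.79% of all genes tested did so under either. Off chromosome 7, 68 members had a median of 0.06 and 39 were above 0. Of these 68, 6 were without overlap in one direction or the other, where 16.2% of all genes tested were. *Rps3*, a small subunit protein at the mRNA entry, shows the pattern, at 467, 434 and 405 RPKM with sg*Trp53* and 568, 584 and 562 RPKM with sg*Kmt2c* (log2 fold change 0.39, adjusted p = 0.582 from limma).

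The 4 members of the X chromosome (*Rpl10*, *Rpl36a*, *Rpl39* and *Rps4x*) were likewise above 0 (0.40 to 0.53, median 0.42), where the other 368 genes of the X had a median of 0.18. On chromosome 4 the 5 members, among them *Rpl11*, *Rpl22* and *Rps6*, were all below 0 (median -0.24), as were most of the other 744 genes (median -0.33, 22.4% above 0). In a single line this shift was largest, and without sg*Kmt2c* line 1 the members of chromosome 4 had a median of 0.04 with 4 of 5 above 0. In sg*Kmt2c* line 1 the members of chromosome 4 lay at -0.62 and the other genes at -0.54 relative to their means, while in sg*Kmt2c* line 3 they lay at 0.09 and 0.17. *Rps6*, the substrate of the S6 kinases, stood at 628, 608 and 418 RPKM with sg*Trp53* and 366, 572 and 560 RPKM with sg*Kmt2c*, with sg*Kmt2c* line 1 the lowest of all lines.

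Over the 14 chromosomes with at least 3 tested members, the median log2 fold change of the members and that of the other genes had r = 0.97, and over all 19 with a member r = 0.91 (Spearman's rho = 0.85). The latter was between 0.85 and 0.92 under the other scalings and with any single line left out. The points come from the same 6 libraries and are a description. The member median was above that of the other genes on 18 of the 19, the exception being chromosome 13 with *Rps23* and *Rps3a3*, and 75 of the 82 members lay above the median of their chromosome, by 0.19 at the median. This offset depended on the scaling and on single lines. After quantile scaling 48 members lay above their chromosome's median, by 0.05 at the median. Without sg*Kmt2c* line 2 it was 50 members by 0.04, without sg*Trp53* line 3 it was 61 by 0.08, and without sg*Kmt2c* line 3 it was 79 by 0.28. The member median was above that of the other genes on 13 chromosomes after quantile scaling and on 15 without either sg*Kmt2c* line 2 or sg*Trp53* line 3. With the chromosome's median subtracted, the SD over members was 0.22 in place of 0.27. *Rpl22l1* was the member farthest from its chromosome, since the other genes of chromosome 3 had a median of -0.41 and the other 3 members there, *Rps3a1*, *Rps27* and *Rpl34*, were below 0. The part of these chromosome-wide shifts in the differences of the members was not tested.

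**Figure D5:**
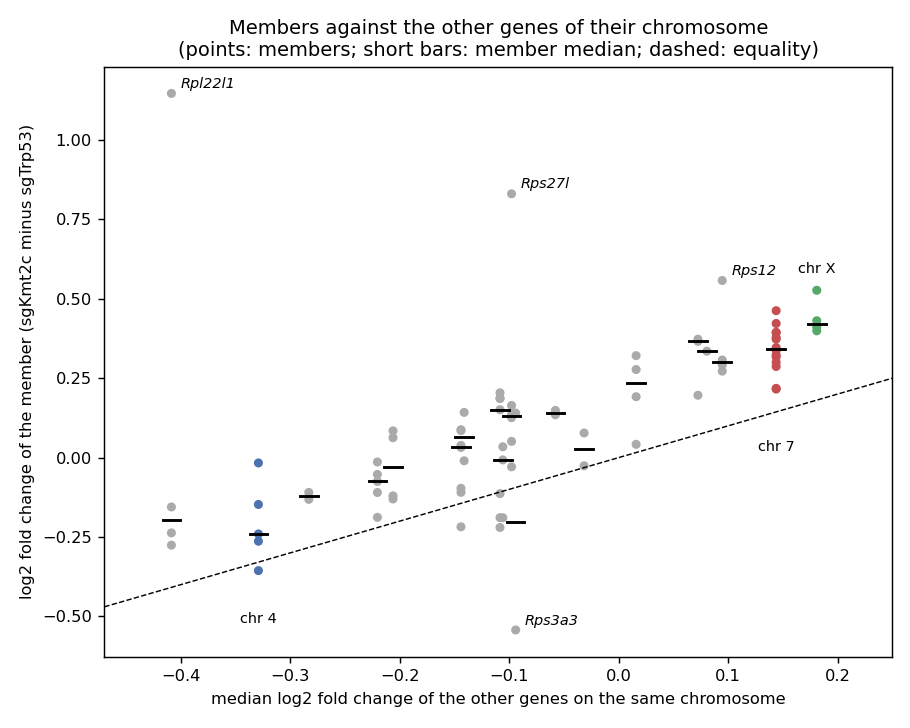
Log2 fold change (sg*Kmt2c* minus sg*Trp53*) of each tested member (points) against the median log2 fold change of the other tested genes on its chromosome, with short bars for the member median of each of the 19 chromosomes and a dashed line of equality; chromosomes 4, 7 and X are colored. The bars climb with the other genes of the chromosome and lie above the line for 18 of 19, and *Rpl22l1* and *Rps27l* stand apart from the members beside them.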

How the data were processed

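Total RNA of 6 lines was sequenced (TruSeq RNA v2, HiSeq). Per the study's methods and the submitters' processing notes, the authors used Trimmomatic for adaptors, STAR for alignment (GRCm38) and HTSeq for counting by gene, and the deposited values are RPKM, made with 1 transcript length per gene. The table has 21065 rows, 209 of them without values, and 6 columns of other samples, not used here. The authors' deposited DESeq2 (1.8.2) comparison, which holds fold changes and p-values, was not used. Whether counting used strand is not given in the sources used here, so overlapping genes are uncertain.

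RPKM times transcript length gave whole reads for 100% of values (within 0.01 read), from which depth and shares of reads were taken. Totals were 3680068 to 6878625 reads. The floor of 3 reads for a count of 0 covers counting error only, while the 95% intervals are those of limma and rest on the spread between lines. Genotypes were taken from the sample titles and compared with limma 3.58.1 in R 4.3.3 (lmFit, eBayes with trend) on log2(RPKM + 1), a scale that understates the change of low genes, for genes with at least 1 RPKM in at least 3 of 6 libraries, without covariates, and p-values were adjusted by Benjamini-Hochberg over the 11617 tested (threshold 0.05). Ratios of paralogs were compared by two-sided exact permutation tests, of which 6 were run and whose p-values are not adjusted. The script was checked on simulated data with changes far larger than that of any tested member. That check does not bear on finding differences of the size seen in the members.

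Values in every line are given for members with an unadjusted p under 0.05, the 3 largest and 3 smallest fold changes, the 5 highest and 5 lowest mean levels, the 5 widest spreads, the listed paralogs with their partners, the P stalk, *Rpl5* and *Rpl11*. *Rps3*, *Rps6*, *Rps15a*, *Rps20* and *Rps3a2* were added after their values were seen. Some genes counted in the totals are not reported here by name. Members and lists were chosen with earlier results of these data known. Alternatives changed the pseudocount, the filter, the scaling (TPM, quantile, median-of-ratios, totals without the members), the moderation, a replicate block, each line left out, sg*Kmt2c* lines 2 and 3 as a single sample, the member list, and a voom fit of recovered reads. The unadjusted threshold and the chromosome reference were added after seeing the data. Sequences are from RefSeq (GRCm38.p6), where 61 members matched by symbol, and plots were drawn with matplotlib 3.10.9.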

Additional observations from a re-analysis of the deposited data

How the results depend on the processing

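No ribosomal protein gene passed an adjusted p-value of 0.05 (limma) in any of the 18 alternatives, and 4 had an unadjusted p-value under 0.05, with 2 to 7 in the alternatives. For *Rpl22l1* the log2 fold change was 0.94 to 1.25 and the adjusted p 0.217 to 0.589, and for *Rps27l* they were 0.67 to 0.99 and 0.209 to 0.922. These 2 and *Rpl18*, *Rps19*, *Rps12*, *Rpl36al*, *Rpl22*, *Rpl7l1*, *Rps3a1* and *Rps3a3* kept their direction in all 18. The member median ranged from -0.05 to 0.23 and the difference in the share of reads from -0.147 to 0.776 percentage points when lines were left out, and both were below 0 without sg*Kmt2c* replicate 2. Relative to all genes, the member median was 0.22, 0.04 after quantile scaling, 0.05 without sg*Kmt2c* replicate 2 and 0.10 without sg*Trp53* replicate 3. All 5 members of chromosome 4 were below 0, except that 1 was above 0 with quantile or median-of-ratios scaling or without sg*Trp53* replicate 1 or 2, and 4 without sg*Kmt2c* replicate 1.

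Over all genes tested, 6 were called higher and 9 lower. Lower calls numbered 2 with a pseudocount of 0.1, 0 with no filter, 4 with a filter of 5 RPKM and 0 with voom, and 0 genes were called either way with the mean of sg*Kmt2c* lines 2 and 3 taken as a single sample. Leaving out 1 line gave 0 to 5 higher and 0 to 3 lower calls. An unadjusted p-value under 0.05, a threshold added after seeing the data, gave 377 higher and 620 lower. With the replicate number as a block, 0 genes were called either way, 1085 genes and 2 members had an unadjusted p-value under 0.05, and *Rpl22l1* had an adjusted p of 0.290. Same-numbered lines had correlations of their deviations of 0.192, 0.399 and 0.0316, and lines of different number had -0.284 to 0.152. Deviations from the mean of 3 lines depend on each other, so these values cannot decide whether the numbers pair the samples.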
